A study of Mus musculus with 24 samples.

Results

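The kidney makes glucose, burns fructose and recovers filtered glucose in the same segment, the proximal tubule, and 9 genes that carry these tasks are described here in polycystic kidney disease. They were chosen by gene symbol, as the rows of the count table named G6pc, Pck1, Fbp1, Khk, Slc5a1, Slc5a2, Slc2a1, Slc2a2 and Slc2a5, which are 9 of the 54532 genes in the table. The rule itself reads no measured value, but the genes were chosen with earlier results of these data known. All 9 passed the filter on low expression and were among the 22570 genes tested.

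Whole kidneys of C57BL/6 mice killed at 18 days of age were profiled by RNA-seq in 24 libraries (the study's methods give the background as C57BL/6 J). All animals had 1 RC allele of Pkd1, which encodes polycystin-1 with an amino acid exchange that lowers its function. In RC/+ mice (labelled control, noncystic) the other allele was floxed but intact, since they lacked Cre. In RC/- mice (labelled cystic) it was inactivated by Ksp-Cre, a recombinase driven by a promoter that is active in tubule epithelium and mostly in the distal nephron and collecting duct, so that presence of Cre and the cystic genotype cannot be told apart. In the edited lines the miR-17 binding motif of the Pkd1 3′ UTR had been deleted by CRISPR/Cas9 from the RC allele. RC/+ D18 and RC/- D18 mice descend from founder 3, and RC/+ D53 and RC/- D53 mice from founder 2, so that each edited line rests on 1 founder. Per the paper, matings of the founders with floxed mice gave edited and unedited offspring. For the RC/+ and RC/- libraries, called the unedited line here, the figure legend and sample titles name no founder. There were 3 libraries in each noncystic and 5 in each cystic group, numbered 4 to 27 in the labels and named by these numbers here. The labels do not state that each library is a mouse of its own, and p-values measure the spread between these libraries.

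As background, glucose is made in the kidney from lactate, glutamine and glycerol. Cytosolic phosphoenolpyruvate carboxykinase (Pck1) and fructose-1,6-bisphosphatase (Fbp1) carry out bypass steps of this gluconeogenesis, and the catalytic subunit of glucose-6-phosphatase (G6pc) releases free glucose. Fructose enters through GLUT5 (Slc2a5) and is phosphorylated by ketohexokinase (Khk). Filtered glucose is taken up from the lumen by SGLT2 (Slc5a2) in the early and SGLT1 (Slc5a1) in the late proximal tubule, and leaves the cell on the blood side through GLUT2 (Slc2a2) and GLUT1 (Slc2a1). GLUT1 is also found in many other cell types, including distal tubule cells. In bulk tissue, fewer cells of a type and less RNA per cell cannot be told apart.

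The libraries held 20.4 to 30.8 M counts each. Libraries 20 to 27, which are 3 of the 5 RC/- D18 and all 5 RC/- D53 libraries, stood apart by transcripts of skeletal muscle. The summed level of 7 skeletal muscle genes was 154 to 203 CPM (counts per 1 M counts of a library) in RC/- D53, and between 165 and 188 CPM in RC/- D18 libraries 20 to 22. It was 8.54 and 9.97 CPM in RC/- D18 libraries 18 and 19, and 6.94 to 9.43 CPM in RC/+. Results of RC/- D18 are also given without these libraries where their call changes. RC/- D53 has no other libraries, so that its results cannot be given without them. They are also given with libraries 20 to 27 as a covariate where their call changes. The Pkd1 total, which adds both alleles and does not read the edit, lay between 38.4 and 71.4 CPM in all 24 libraries and passed in none of the comparisons.

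All genes but Slc2a1 had their lowest mean level in the unedited cystic kidneys, and Slc2a1 had its highest there. In RC/- kidneys, mean levels of these 8 genes lay between 20.1% (G6pc) and 47.7% (Slc5a1) of the RC/+ mean, and in both edited cystic groups every one of them was higher. The plot of single kidneys shows each of these levels.

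**Figure D1:**
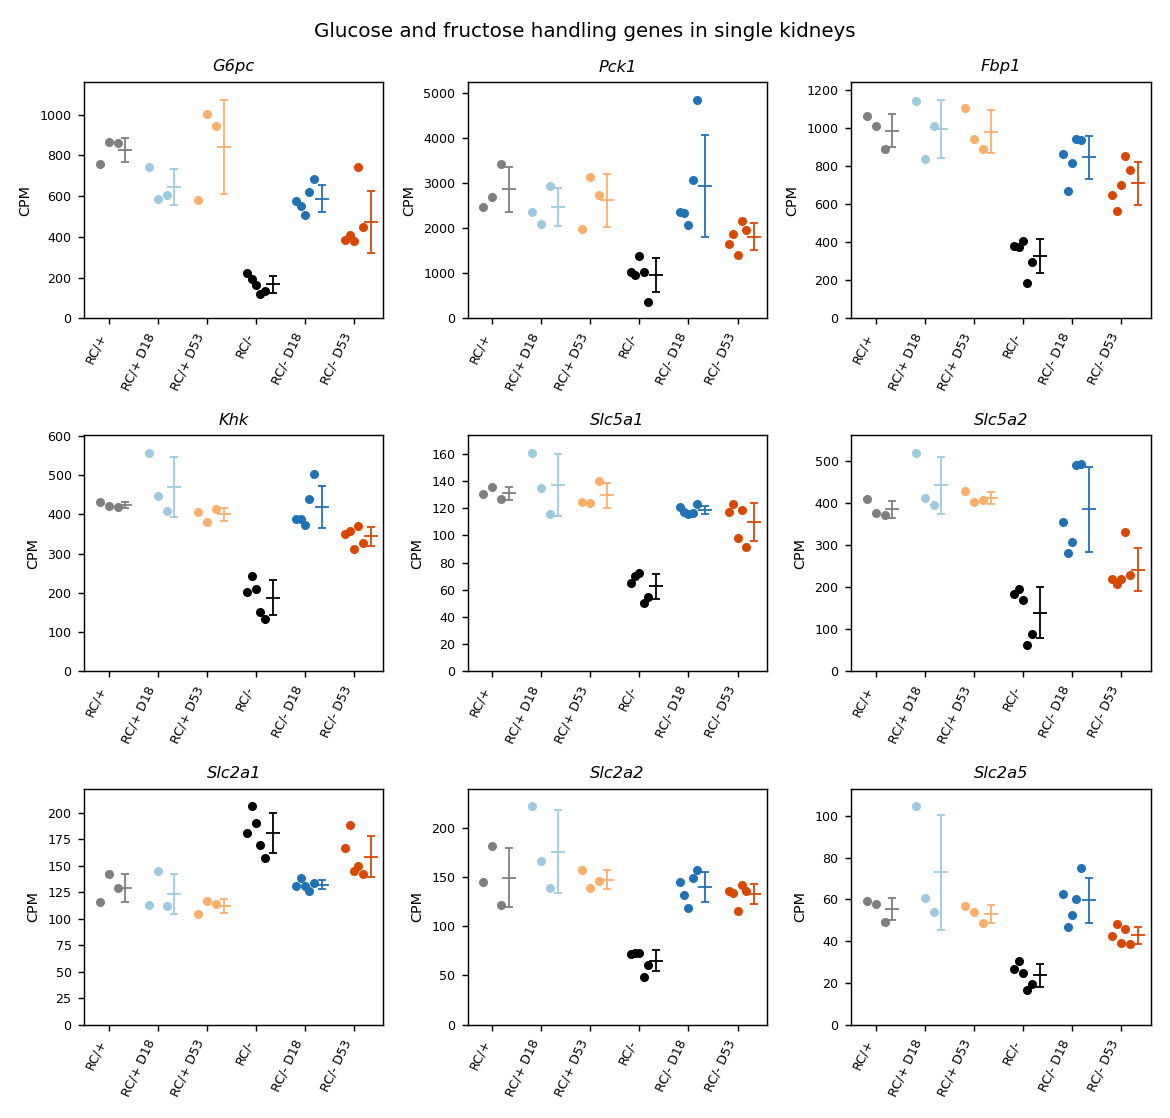
Level of each gene in CPM (vertical axis from 0) in each of the 24 kidneys, by group, with each group's mean and SD to the right of its points. The 5 RC/- kidneys lie below all other kidneys for G6pc, Pck1, Fbp1, Khk, Slc5a1, Slc5a2, Slc2a2 and Slc2a5. For Slc2a1 they lie above the 9 noncystic kidneys.

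Per length, the enzymes of gluconeogenesis were the most abundant of the genes. On the scale of reads per kilobase of exon and 1 M counts (RPKM), the RC/+ level was 833 ± 147 for Pck1, 579 ± 51.2 for Fbp1 and 343 ± 25.1 for G6pc (SD, n = 3). Khk followed at 236 ± 4.07 and Slc5a2 at 133 ± 7.03 RPKM. The remaining transporters were less abundant, with 36.8 ± 3.82 for Slc2a1, 31.9 ± 1.12 for Slc5a1, 25.9 ± 5.20 for Slc2a2 and 16.3 ± 1.59 RPKM for Slc2a5. Of the neighbours in this order, Slc2a1 and Slc5a1 had overlapping ranges in RC/+ (33.0 to 40.6 and 30.9 to 33.1 RPKM), as had Slc5a1 and Slc2a2 (21.1 to 31.4 RPKM for the latter).

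In RC/- kidneys the order of these length-scaled levels was different. G6pc lay above Khk in 3 of 3 RC/+ libraries and in 0 of 5 RC/- libraries, where G6pc reached 68.8 ± 17.3 and Khk 104 ± 24.8 RPKM (SD, n = 5). G6pc was again above Khk in 5 of 5 RC/- D18 libraries and in 2 of 5 RC/- D53 libraries, though RC/+ D18 also had it above in only 1 of 3. Slc5a2 exceeded Slc2a1 in all 9 noncystic libraries and in 3 of 5 RC/- libraries, at 48.3 ± 20.8 against 51.5 ± 5.39 RPKM. Pck1 and Fbp1 remained the most abundant of the genes in RC/- (278 ± 108 and 192 ± 53.3 RPKM).

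G6pc (ENSMUSG00000078650, chr11:101367561-101377903, plus strand in GRCm38), whose product releases free glucose in the last step of gluconeogenesis, had the largest difference of the 9. Its level was 757, 865 and 860.0 CPM in the 3 RC/+ libraries and 220.0, 195, 162, 118 and 136 CPM in the 5 RC/- libraries. The groups were far apart, without any overlap. RC/- kidneys were 5.10-fold lower, a log2 fold change of -2.35 ± 0.20 (SE) with a limma adjusted p of 3.86e-09. In RC/- D18 the level was 576, 549.6, 509, 621 and 684 CPM and in RC/- D53 383, 409, 381, 745 and 449 CPM. All 10 of these values were above the RC/- values, with 1 RC/- D53 kidney (library 26) well above the other 4. Against RC/-, G6pc rose 3.61-fold in RC/- D18 (log2 1.85 ± 0.18, adjusted p = 1.39e-08). It rose 2.82-fold in RC/- D53 (log2 1.50 ± 0.18, adjusted p = 8e-07).

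Pck1 (ENSMUSG00000027513, chr2:173153048-173159273, plus strand), which commits carbon to gluconeogenesis in the cytosol, varied widely between kidneys. RC/+ libraries held 2462, 2686 and 3423 CPM and RC/- libraries 1028, 963, 1383, 1035 and 359 CPM. Within RC/-, library 17 stood below the other 4, and no RC/- value reached the lowest RC/+ value. Pck1 was 3.24-fold lower in RC/- (log2 -1.70 ± 0.30, adjusted p = 7.75e-05). Without library 17 the log2 difference was -1.37 with an adjusted p of 3.81e-05. RC/- D18 libraries held 2363, 2330.0, 2057, 3068 and 4841 CPM, of which library 22 exceeded every noncystic kidney. RC/- D53 libraries held 1653, 1862, 1408, 2159 and 1966 CPM, and all 5 were above the RC/- values, the lowest by a narrow margin. Pck1 rose 3.19-fold in RC/- D18 (adjusted p = 1.29e-05) and 2.05-fold in RC/- D53 (adjusted p = 0.00346), both against RC/-. With libraries 20 to 27 marked by a covariate the RC/- D53 difference was 0.62 on the log2 scale and no longer passed (adjusted p = 0.462).

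Fbp1 (ENSMUSG00000069805, chr13:62864753-62888282, minus strand), the bisphosphatase between the Pck1 and G6pc steps, showed 1059.5, 1006 and 889 CPM in RC/+ and 379, 374, 407, 184 and 293 CPM in RC/-. Library 16 was the lowest of RC/-, and the 2 groups did not overlap. The gene was 3.12-fold lower in RC/- (log2 -1.64 ± 0.19, adjusted p = 1.92e-07). In RC/- D18 it reached 844 ± 113 CPM (SD, n = 5), and the RC/- D53 mean was 708 ± 112 CPM. These levels were 2.66-fold and 2.22-fold those of RC/- (adjusted p = 1.83e-07 and 6.7e-06).

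The promoters of the enzyme genes were read from RefSeq (GRCm38.p6) over 250 bases before to 50 bases after the gene start. They are shown as a description, and RefSeq entries were matched for 8 of the 9 genes, all but Slc5a2. A cAMP response element-like motif, TTACGTNA on either strand, was present in 2 of these 8 genes, G6pc and Pck1, against 0.898% of all 32851 promoters. The windows below are written 5′ to 3′ on the plus strand, which is the strand of both genes, with the motif in capitals. The G6pc element reads the same on both strands.
G6pc cAMP response element-like, chr11:101367543-101367572: gttttgctattTTACGTAAatcaccctgaa
Pck1 cAMP response element-like, chr2:173152969-173152998: aggcctgccccTTACGTCAgaggcgagcct

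RefSeq starts differ from the gene starts given above, and distances are from the RefSeq start. The motif begins 162 bases before the start in G6pc and 93 bases before it in Pck1. The letters of a TATA box, TATAAA, were present in G6pc, 29 bases before the start, and in Slc2a1, where they lie after the start (13.6% of all promoters). An E-box, CACGTG, was present in Khk and Slc5a1 (7.15%), and both were searched on either strand. A match is a description of letters in this window, and whether any factor binds there was not measured.

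The fructose genes changed to a like extent. Khk (ENSMUSG00000029162, chr5:30921431-30931248, plus strand), which traps fructose as its phosphate, held 432, 420.2 and 419 CPM in RC/+ and 201, 242, 209.6, 151 and 133 CPM in RC/-. The RC/+ kidneys were within a few percent of each other, and the RC/- kidneys spread more, with libraries 16 and 17 lowest. Khk was 2.32-fold lower in RC/- (log2 -1.21 ± 0.14, adjusted p = 2.34e-07). It was 389, 389, 374, 439.5 and 502 CPM in RC/- D18 and 349, 358, 312, 370.3 and 327 CPM in RC/- D53, so that every RC/- D53 kidney lay below every RC/- D18 kidney, as in 0.798% of all genes. That difference between the edited cystic groups was -0.28 ± 0.12 on the log2 scale and did not pass (adjusted p = 0.318). Against RC/-, Khk rose 2.27-fold in RC/- D18 (adjusted p = 3.4e-08) and 1.87-fold in RC/- D53 (adjusted p = 3.62e-06).

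Slc2a5 (ENSMUSG00000028976, chr4:150119283-150144169, plus strand), the fructose transporter GLUT5, was the least abundant of the 9 per length. It held 59.3, 57.5 and 49.2 CPM in RC/+ and 26.6, 30.7, 24.5, 16.7 and 19.2 CPM in RC/-, with library 16 lowest. No RC/- value came near the RC/+ range, and Slc2a5 was 2.40-fold lower (log2 -1.26 ± 0.19, adjusted p = 7.62e-06). RC/- D18 kidneys spanned 46.9 to 75.1 CPM and RC/- D53 kidneys 38.5 to 48.2 CPM. These were 2.55-fold and 1.85-fold the RC/- level (adjusted p = 3.45e-07 and 0.000159), and the RC/- D53 call was lost with libraries 20 to 27 as a covariate (adjusted p = 0.142). Library 7 of RC/+ D18 had the highest Slc2a5 level of all at 105 CPM, and the same library was highest for 6 of the 9 genes (Fbp1, Khk, Slc5a1, Slc5a2, Slc2a2 and Slc2a5).

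On the luminal side, Slc5a2 (ENSMUSG00000030781, chr7:128265657-128272430, plus strand), the high-capacity transporter SGLT2, held 409, 377 and 372 CPM in RC/+ and 183, 196, 169, 62.9 and 88.3 CPM in RC/-. RC/- libraries 16 and 17 were well below the other 3, and all 5 lay below RC/+. Slc5a2 was 3.02-fold lower in RC/- (log2 -1.60 ± 0.27, adjusted p = 4.08e-05). It was 355, 281, 307, 489.6 and 494 CPM in RC/- D18, where libraries 21 and 22 were above RC/+, and 219.7, 208, 219.6, 332 and 229.6 CPM in RC/- D53, where library 26 was highest. Slc5a2 rose 2.94-fold in RC/- D18 (adjusted p = 7.68e-06) and 1.87-fold in RC/- D53 (adjusted p = 0.0043), against RC/-. The RC/- D53 call was lost with libraries 20 to 27 as a covariate (log2 0.49, adjusted p = 0.525). In the annotation, 20.6% of its exon bases are shared with BC017158 on the opposite strand, and the strand setting of the counts is not given in the sources used here. For BC017158 itself the RC/+ mean was 25.5 ± 1.61 CPM and the RC/- mean 25.7 ± 2.41 CPM (limma adjusted p = 0.959).

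Slc5a1 (ENSMUSG00000011034, chr5:33104219-33162870, plus strand), the high-affinity transporter SGLT1 of the late segment of the proximal tubule, had the smallest fall of the 8 lower genes. RC/+ libraries held 130.1, 136 and 127 CPM and RC/- libraries 64.8, 69.8, 72.2, 50.6 and 54.7 CPM. The gap between the groups was wide relative to their spread, and Slc5a1 was 2.11-fold lower in RC/- (log2 -1.08 ± 0.11, adjusted p = 5.39e-08). RC/- D18 kidneys lay within 116 to 123 CPM and RC/- D53 kidneys within 91.7 to 123 CPM. These were 1.92-fold and 1.76-fold the RC/- level (adjusted p = 4.38e-08 and 8.65e-07). The ratio of Slc5a2 to Slc5a1 per length was 4.18 ± 0.262 in RC/+ and 3.07 ± 1.01 in RC/- (SD). Among the edited cystic groups it averaged 4.59 ± 1.16 in the D18 line and 3.14 ± 0.634 in the D53 line. Its difference from RC/- had an exact two-sided permutation p of 0.107 for RC/+, 0.0794 for RC/- D18 and 0.786 for RC/- D53, and none passed after adjustment.

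On the blood side the transporters went opposite ways. Slc2a2 (ENSMUSG00000027690, chr3:28697903-28731359, plus strand), encoding GLUT2, was at 145, 181 and 121 CPM in the RC/+ libraries and at 71.5, 72.3, 72.6, 48.1 and 60.0 CPM in the RC/- libraries. The RC/+ kidneys spread widely, and all were above the RC/- kidneys. Slc2a2 was 2.29-fold lower in RC/- (log2 -1.20 ± 0.14, adjusted p = 4.33e-07). RC/- D18 libraries held 145, 132, 118, 149 and 157 CPM and RC/- D53 libraries 136, 134, 115, 141 and 135 CPM. Both sets were within or near the RC/+ range, 2.17-fold and 2.06-fold the RC/- level (adjusted p = 1.18e-07 and 9.03e-07).

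Slc2a1 (ENSMUSG00000028645, chr4:119108711-119137983, plus strand), encoding GLUT1, held 116, 142 and 129 CPM in RC/+ and 181, 206, 189.8, 169 and 157 CPM in RC/-. Every RC/- kidney exceeded every RC/+ kidney, with library 14 highest. Slc2a1 was 1.40-fold higher in RC/- (log2 0.49 ± 0.10, adjusted p = 0.000399). Its direction and call held in all 15 alternative fits, in which the log2 difference ran from 0.35 to 0.56, lowest with TMM factors. It was 131, 138, 131, 126 and 134 CPM in RC/- D18, below all RC/- kidneys, and 166, 188, 145, 149.8 and 142 CPM in RC/- D53, overlapping them. Slc2a1 fell 1.36-fold in RC/- D18 against RC/- (log2 -0.45 ± 0.086, adjusted p = 0.000179). The corresponding RC/- D53 difference was -0.19 ± 0.086 on the log2 scale with an adjusted p of 0.0981, and it passed without RC/- library 17 or RC/- D53 library 24 (adjusted p = 0.0454 and 0.0251). Gm12868, on the opposite strand, shares 2.99% of the exon bases of Slc2a1.

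The ratio of Slc2a2 to Slc2a1 per length separated RC/- from the other groups, which overlapped among themselves. It was 0.764, 0.774 and 0.575 in the RC/+ libraries and 0.241, 0.214, 0.233, 0.173 and 0.233 in the RC/- libraries. It was 0.675, 0.580, 0.551, 0.718 and 0.713 in RC/- D18 and 0.497, 0.433, 0.483, 0.574 and 0.580 in RC/- D53, all above the RC/- values. By exact two-sided permutation tests of the log2 ratio, RC/- differed from RC/- D18 and from RC/- D53 with p = 0.00794 in each case (adjusted p = 0.0476 over 12 ratio tests). RC/- differed from RC/+ with an exact permutation p of 0.0357 (adjusted p = 0.143), the smallest that 5 against 3 libraries can give. The ratios were chosen after the values were seen, so that these p-values are given as a description. Against RC/+ and RC/- D18, both genes already lay apart from RC/- without overlap and in opposite directions. The separation of the ratio follows from that and adds no support.

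**Figure D2:**
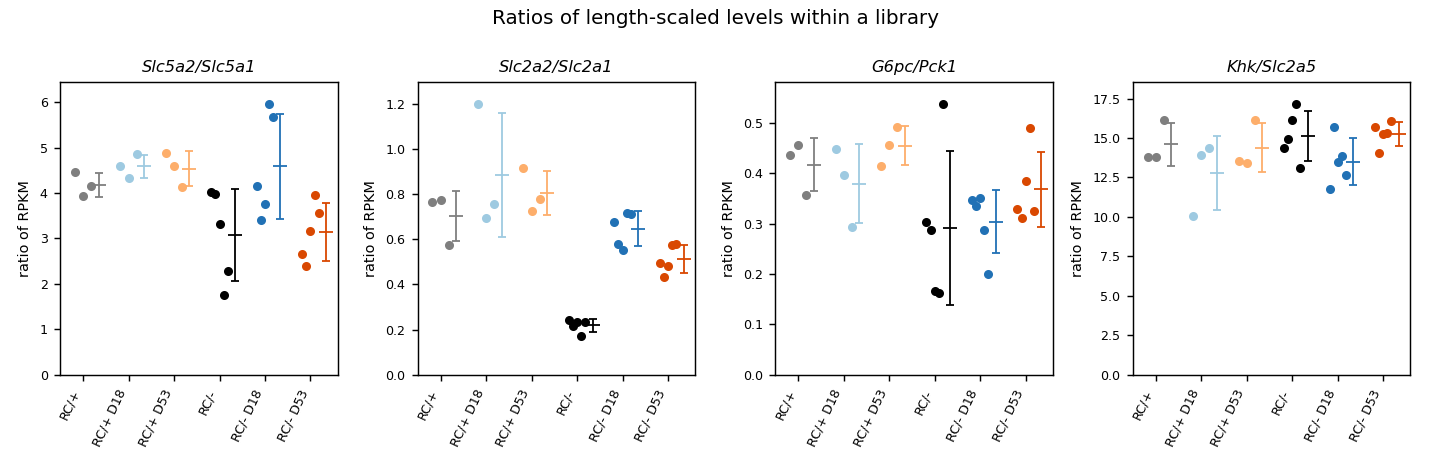
Ratio of length-scaled levels (RPKM) of a pair of genes in each kidney, by group, with each group's mean and SD. Slc2a2/Slc2a1 lies at or under 0.241 in every RC/- kidney and at or over 0.433 in every other kidney, while RC/- overlaps RC/+ for the other ratios.

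The ratio of G6pc to Pck1 was 0.417 ± 0.0531 in RC/+ and 0.291 ± 0.153 in RC/-, and that of Khk to Slc2a5 was 14.6 ± 1.35 and 15.1 ± 1.57 (SD). Neither difference passed (exact permutation p = 0.214 and 0.607). For Khk and Slc2a5, which act in sequence on fructose, the mean log2 ratio differed by 0.051 between RC/- and RC/+.

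Counted over the genes, 8 of 9 were lower and 1 was higher in RC/- than in RC/+ at an adjusted p below 0.05, where 12.2% of all genes tested were lower and 25.5% higher. The same 8 had all RC/- libraries below all RC/+ libraries (11.6% of all genes). Slc2a1 had all above, where 37.6% of all genes did not overlap in either direction, the larger part of them higher in RC/-. The median log2 difference was -1.26 over the 9 genes and 0.14 over all genes. With TMM factors the median of all genes was 0.012 and the 9 calls were the same, while calls over all genes went from 5753 higher and 2744 lower to 3844 higher and 3896 lower. The RC/- libraries 16 and 17 were the 2 lowest for 7 of the 8 falling genes, all but Pck1, and leaving out any 1 library kept the 9 calls.

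In RC/- D18 against RC/-, G6pc, Pck1, Fbp1, Khk, Slc2a5, Slc5a2, Slc5a1 and Slc2a2 passed as higher, against 14.3% of all genes, and Slc2a1 as lower, against 26.9%. None of the 9 genes overlapped between these groups (9.01% of all genes were higher without overlap and 18.8% lower). Without libraries 20 to 27, which leaves 2 RC/- D18 libraries, the 9 calls were the same. In RC/- D53 against RC/- the first 8 passed as higher (11.3% of all genes), each without overlap (6.98%). With libraries 20 to 27 as a covariate 5 passed, namely G6pc, Fbp1, Khk, Slc5a1 and Slc2a2. Because all RC/- D53 libraries are in that set, this fit rests on the difference within RC/- D18. These comparisons share the RC/- libraries with RC/- against RC/+, so that the opposite signs are not independent of each other.

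**Figure D3:**
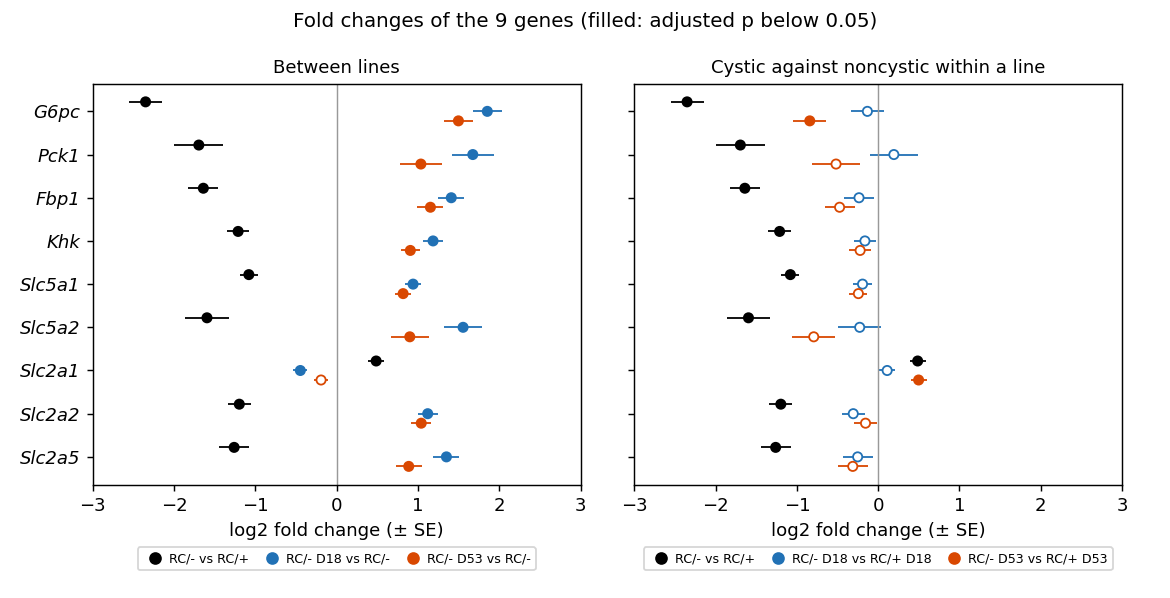
Log2 fold change of each gene with its SE (horizontal axis), with filled points where the limma adjusted p is below 0.05. On the left, RC/- against RC/+ and each edited cystic group against RC/-. On the right, cystic against noncystic kidneys within each line, where only G6pc and Slc2a1 of the D53 line are filled among the edited lines.

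In noncystic kidneys no difference between an edited line and RC/+ passed for these genes. In RC/+ D18 against RC/+ 0 of 9 passed by limma, edgeR or DESeq2, as did 0.00443% of all genes by limma, with 0 of the 9 at an unadjusted p under 0.05, and log2 differences ran from -0.37 (G6pc) to 0.34 (Slc2a5). G6pc was 745, 585 and 605 CPM in RC/+ D18, each value below the RC/+ values (5.07% of all genes were lower without overlap), with an adjusted p of 0.983. In RC/+ D53 against RC/+ 0 of 9 passed by the same tools, 0 of them at an unadjusted p under 0.05. Over all genes 0.00% passed by limma, and 525 genes had an unadjusted p under 0.05. DESeq2 and edgeR also called 0 genes there. The log2 differences ran from -0.20 (Slc2a1) to 0.097 (Slc5a2), and Khk alone did not overlap, being lower at 405, 381 and 414 CPM (3.89% of all genes).

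Within the D18 line, the difference between cystic and noncystic kidneys passed for none of the 9 genes by limma, edgeR or DESeq2, where 0.266% of all genes tested passed by limma. Of the 9, 1 (Slc2a2) had an unadjusted p under 0.05. The largest log2 differences were -0.31 ± 0.14 for Slc2a2 and -0.25 ± 0.19 for Slc2a5, and all 9 genes overlapped (5.76% of all genes did not). A p that misses the threshold does not show that these groups are alike, and the SE of each difference is between 0.10 and 0.30.

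Within the D53 line, G6pc was 1.79-fold lower in RC/- D53 than in RC/+ D53 (log2 -0.84 ± 0.20, adjusted p = 0.0222) and Slc2a1 1.41-fold higher (log2 0.50 ± 0.10, adjusted p = 0.00442). Among all genes 0.146% passed as lower and 2.45% as higher. The RC/+ D53 libraries held 579, 1006 and 944 CPM of G6pc, of which library 10 overlapped the range of RC/- D53, and 104, 117 and 114 CPM of Slc2a1, all below RC/- D53 (8.12% of all genes were higher without overlap). The G6pc call was lost without any 1 of RC/+ D53 libraries 11 and 12 or RC/- D53 libraries 23, 24 and 25, and both calls were lost with libraries 20 to 27 as a covariate (adjusted p = 0.162 and 0.098). Fbp1, Khk, Slc5a1, Slc5a2 and Slc2a5 had all RC/- D53 values below all RC/+ D53 values (3.45% of all genes) without passing, with Slc5a2 at log2 -0.79 ± 0.27 (adjusted p = 0.135). Fitted on these 2 groups alone, Slc5a2 and Fbp1 passed too (adjusted p = 0.00194 and 0.0449).

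Between the edited cystic groups none of the 9 genes passed by limma, edgeR or DESeq2, where 0.266% of all genes passed by limma. Unadjusted p-values were under 0.05 for 5 genes (Pck1, Khk, Slc5a2, Slc2a1 and Slc2a5), and 8 of the 9 log2 differences, RC/- D53 minus RC/- D18, were negative. The largest were -0.66 ± 0.23 for Slc5a2 (adjusted p = 0.246) and -0.64 ± 0.26 for Pck1 (adjusted p = 0.295). Slc2a1 was higher in every RC/- D53 kidney than in every RC/- D18 kidney (log2 0.25 ± 0.086, adjusted p = 0.231), where 1.94% of all genes were higher and 0.798% lower without overlap.

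Whether the cystic difference itself depended on the line was tested by interaction terms, which subtract the RC/- minus RC/+ difference from that of an edited line. For the D18 line 8 of 9 passed as higher, all but Slc2a1 (6.31% of all genes). G6pc had the largest term, 2.22 ± 0.29 (adjusted p = 1.73e-05), and Slc2a1 had -0.37 ± 0.14 (adjusted p = 0.0698). Without libraries 20 to 27 the terms of Slc5a2 and Slc2a5 no longer passed (adjusted p = 0.13 and 0.0949). For the D53 line G6pc, Fbp1, Khk, Slc5a1, Slc2a2 and Slc2a5 passed (4.73% of all genes), and Pck1, Slc5a2 and Slc2a1 did not (adjusted p = 0.074, 0.181 and 0.974). With the covariate only Slc5a1 passed in the D53 line.

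Related genes were read from 4 lists. Over all genes tested, 12.2% passed as lower and 25.5% as higher in RC/- against RC/+. The higher calls in these lists, 3 of 11, 1 of 5, 4 of 17 and 3 of 14, were near the latter share. In RC/- D18 against RC/-, 14.3% of all genes were higher and 26.9% lower. In RC/- D53 against RC/-, 11.3% were higher and 4262 of 22570 lower. The same shares of all genes apply to the cell type markers below. Of 11 further genes of gluconeogenesis, 8 were lower and 3 higher in RC/- than in RC/+, with a median log2 difference of -0.75. Pcx, pyruvate carboxylase, had a log2 difference of -1.57 (adjusted p = 1.28e-07), and the low-abundance G6pc2, a second glucose-6-phosphatase catalytic subunit, one of -1.49 (1.68 ± 0.427 CPM in RC/+). Among those higher were Pck2, the mitochondrial carboxykinase (0.52, adjusted p = 0.000342), and G6pc3, the widely expressed phosphatase (0.24). The carboxykinases therefore had opposite signs, Pck1 at -1.70 and Pck2 at 0.52, and so had the phosphatases G6pc and G6pc3. With TMM factors G6pc3 no longer passed. Against RC/-, 8 were higher and 2 lower (Pck2 among them) in RC/- D18, and the counts were the same in RC/- D53.

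Of 5 genes of fructose and polyol metabolism, 3 were lower in RC/-, among them Sord (sorbitol dehydrogenase, log2 -1.40) and Tkfc (triokinase, -0.95), and Gpi1, of glycolysis, was higher (0.30, adjusted p = 0.00247), the last not with TMM factors. Tkfc follows Khk on the fructose route. In both edited cystic groups these 3 genes were higher than in RC/-, Sord by 1.32 and 1.03 on the log2 scale in RC/- D18 and RC/- D53.

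Of 17 further sugar transporters and relatives, 9 were lower in RC/- and 4 higher. The log2 difference was -1.80 (adjusted p = 2.82e-07) for Slc5a12, a lactate cotransporter, -1.63 for Slc2a9, a urate carrier, and -1.54 for Slc5a8, a monocarboxylate cotransporter. The higher ones were led by Slc2a6, a lysosomal carrier expressed in myeloid cells, at 2.94 (adjusted p = 7.32e-09). Its level was 0.726 ± 0.146 CPM in RC/+ and 6.29 ± 2.10 CPM in RC/-. Slc2a3, encoding GLUT3, followed at 1.01 and Pdzk1ip1, a partner protein of Slc5a2, at 0.39. With TMM factors 10 were lower and only Slc2a3 and Slc2a6 higher. Slc2a1 thus shared its direction with Slc2a3 and Slc2a6, while the remaining members of the Slc2a family that passed with both scalings, Slc2a2, Slc2a4, Slc2a5, Slc2a9 and Slc2a12, were lower.

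Of 14 regulators of these genes, 6 were lower and 3 higher in RC/-. Hnf4a, a transcription factor of the proximal tubule and liver, had a log2 difference of -1.22 (adjusted p = 1.21e-07). Its level was 488 to 499 CPM in RC/+ and 149 to 262 CPM in RC/-, and Mlxipl, the carbohydrate response factor ChREBP, had a log2 difference of -0.85. Irs2, an insulin receptor substrate, Cebpb and the coactivator Crtc2 were higher by 0.48, 0.39 and 0.23, and none of these 3 passed with TMM factors. In RC/- D18 against RC/-, 8 regulators were higher and 2 lower, and in RC/- D53, 7 and 2.

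**Figure D4:**
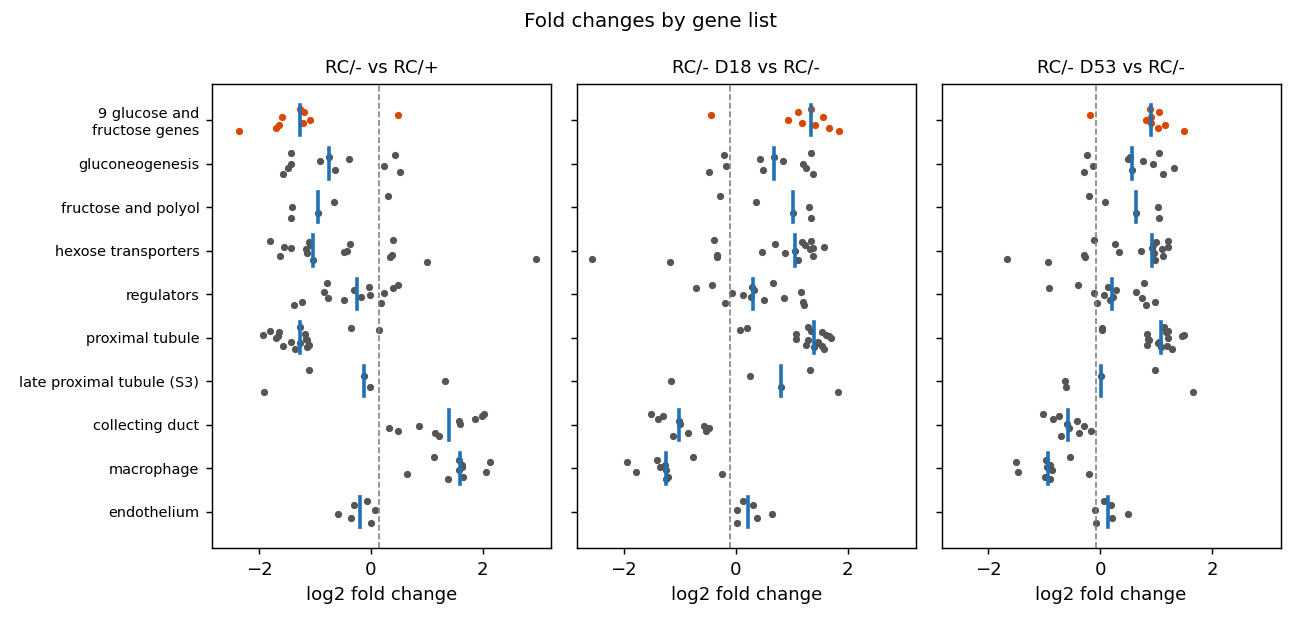
Log2 fold change of each gene (points) by list in RC/- against RC/+ and in each edited cystic group against RC/-. Blue bars are list medians and the dashed line is the median of all genes tested. The 9 glucose and fructose genes and the proximal tubule markers have medians of -1.26 and -1.27 in the first panel.

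Markers of the proximal tubule moved with these genes. Of 17 markers 15 were lower in RC/-, with a median log2 difference of -1.27, and their summed level was 19763 to 21397 CPM in RC/+ and 5504 to 10731 CPM in RC/-. It was 18826 to 23473 CPM in RC/- D18 and 15766 to 18688 CPM in RC/- D53. No marker of the proximal tubule was at 0 in any library. Within RC/-, the summed level was lowest in library 16 (5504 CPM) and library 17 (6243 CPM), where most of the 8 genes were lowest too. Of 5 markers of the late segment, where Slc5a1 is placed, 2 were lower and 1 higher.

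Collecting duct markers went the other way, 8 of 10 being higher in RC/-, with sums of 1322 to 1639.6 CPM in RC/+ and 3023 to 5384 CPM in RC/-. The sums were 1620.0 to 2030.5 CPM in RC/- D18 and 2095 to 3375 CPM in RC/- D53. All 10 macrophage markers were higher in RC/- than in RC/+ (659 to 1207 against 308 to 327 CPM), with sums of 385 to 417 CPM in RC/- D18 and 415 to 588 CPM in RC/- D53. Within the D53 line, where Slc2a1 was higher in cystic kidneys, 6 of 10 collecting duct and 7 of 10 macrophage markers were higher too (5 and 6 with TMM factors), with sums in RC/+ D53 of 1199 to 1345 and 293 to 351 CPM. In RC/- against RC/+, 3 of 6 endothelial and 1 of 6 red cell markers were lower. In RC/- D53 against RC/- all 6 red cell markers were higher. The part of these cell types in the changes of the 9 genes was not tested. Liver and small intestine also use several of the 9 genes. The 8 liver markers summed to 222 to 239 CPM in RC/+, 82.6 to 268 CPM in RC/- and 184 to 364 CPM in RC/- D53. They did not move together. In RC/- against RC/+, Ahsg and Apoa1 passed as higher, Ttr as lower, and 5 did not pass. With TMM factors Apoa1 was higher and Serpina1a and Ttr lower. Alb was 0.612 to 1.11 CPM in RC/+, 0.633 to 73.1 CPM in RC/- and 1.17 to 88.3 CPM in RC/- D53. Tat was at 0 in 12 libraries, Cps1 in 2 and Ahsg in 1. Of 6 intestinal markers, Alpi was at 0 in all 24 libraries, Cdx2 in 23, Cdx1 in 21 and Fabp2 in 18, while Vil1, which the proximal tubule also expresses, had counts in every library.

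The genes most alike to each of the 9 over the 24 libraries were taken by Pearson's r of log2 CPM, which is given as a description since all genes share libraries and groups. They were Galnt14 (r = 0.986) and Sfxn1 (0.969) for G6pc, and Fahd2a (0.928) and Fitm1 (0.927) for Pck1. Those of Fbp1 were Ass1 (0.984), which is among the proximal tubule markers, and F13b (0.979). For the fructose genes they were Cryzl2 (0.992) for Khk, and Car14 (0.977) and Retsat (0.977) for Slc2a5. Slc5a2 was nearest to the proximal tubule markers Miox (0.971) and Slc34a1 (0.962), and Slc5a1 to Mthfd1 (0.978) and Atp5a1 (0.977). Slc2a2 was nearest to Tmem116 (0.973) and Cryl1 (0.971), and Slc2a1 to Pfkp (0.909), the platelet-type phosphofructokinase, and AI661453 (0.903). Pck1 and Slc2a1 had the weakest best matches.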

How the data were processed

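The deposited table holds raw read counts per gene. Per the labels and the study's methods, the authors trimmed reads with Trim Galore 0.6.3 and aligned and counted them with STAR 2.5.3a on GRCm38 (Ensembl release 94), with the strand setting not given in the sources used here. Gene positions and exon lengths were from GENCODE M21. Counts were scaled to total counts and turned into log2 CPM with edgeR 4.0.16 (prior count 2). The 22570 genes whose log2 CPM averaged -3 or more were tested. One limma-trend model (limma 3.58.1, R 4.3.3) over 6 groups and 24 libraries gave all contrasts, two-sided, with Benjamini-Hochberg adjustment over all genes tested and a threshold of 0.05. It was also run on simulated counts with few genes changed, as many up as down. That does not test it under the many and uneven changes seen here.

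Alternatives were edgeR's quasi-likelihood test, DESeq2 1.42.0, TMM factors, no filter, sex (from the counts) as a covariate, libraries 20 to 27 as a covariate, only the groups compared, and each library left out. Leaving out libraries 20 to 27 was added after seeing the data. The sample titles do not mark these libraries as a set. They stood apart by muscle transcripts in these same counts, so that the covariate also rests on values seen here. Named genes were the 9 genes, up to 3 per list and direction with the largest difference among those passing in RC/- against RC/+, and the 2 most alike genes each. A few genes and a motif that this rule or search gave are not reported here. The genes and lists were chosen with earlier results of these data known. RPKM used exon-union lengths. Libraries of a group differed by more than sampling noise in all 39 pairs.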

Additional observations from a re-analysis of the deposited data

Results flagged for a closer look

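In 3 of 27 sets of 5 cystic libraries, 1 library stood apart from the other 4 by Dixon's gap test, which flags about 1 in 20 sets by chance. All 3 were in RC/- D53. Library 26 held 745 CPM of G6pc and 332 CPM of Slc5a2, both the highest of the group, and library 25 held 115 CPM of Slc2a2, the lowest.

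Of 18 interaction terms tested between an edited line and the unedited line, 14 passed, all as higher. Over all genes, 6.31% passed as higher for the D18 line and 4.73% for the D53 line. For the D18 line the limma terms, on the log2 scale, were 2.22 for G6pc, 1.89 for Pck1 and 1.40 for Fbp1 among the enzymes of gluconeogenesis. They were 1.05 for Khk and 1.01 for Slc2a5, 1.37 for Slc5a2 and 0.89 for Slc5a1, and 0.89 for Slc2a2. For the D53 line they were 1.51 for G6pc, 1.17 for Fbp1, 0.99 for Khk, 0.95 for Slc2a5, 0.84 for Slc5a1 and 1.04 for Slc2a2. Both sets share the RC/- and RC/+ libraries.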

How the results depend on the processing

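The 9 calls in RC/- against RC/+ and in RC/- D18 against RC/- held under every alternative run for them. With libraries 20 to 27 as a covariate, 5 genes passed in RC/- D53 against RC/-, 0 in RC/- D53 against RC/+ D53 and 1 in the D53 interaction. Fitted on the groups compared alone, 4 passed in RC/- D53 against RC/+ D53, and with each library left out 1 to 2 passed there. All RC/- D53 libraries are among libraries 20 to 27, so that the covariate rests on RC/- D18 alone. The D53 interaction term of Slc2a5 lost its call without RC/+ library 4 or 5 or RC/+ D53 library 12. That of Pck1 gained one without RC/- library 15, as did the D18 term of Slc2a1 without RC/+ library 5, RC/+ D18 library 7 or RC/- library 17.

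Some log2 differences that did not pass changed sign. In RC/+ D53 against RC/+, G6pc was 0.011 with DESeq2, 0.0090 with edgeR and 0.049 with sex as a covariate, and with that covariate Fbp1 was 0.031 and Slc2a2 0.039. Pck1 in RC/- D18 against RC/+ D18 was -0.055 both with libraries 20 to 27 as a covariate and without these libraries. With each library left out in turn, the ranges in RC/+ D53 against RC/+ were -0.16 to 0.24 for G6pc, -0.28 to 0.043 for Pck1, -0.10 to 0.054 for Fbp1, -0.076 to 0.0094 for Slc5a1 and -0.14 to 0.15 for Slc2a2. In RC/+ D18 against RC/+ they were -0.099 to 0.12 for Fbp1, -0.070 to 0.17 for Slc5a1 and -0.20 to 0.0021 for Slc2a1. In RC/- D18 against RC/+ D18 they were -0.0063 to 0.33 for Pck1 and -0.44 to 0.038 for Slc2a5, and the D53 interaction term of Slc2a1 ran from -0.063 to 0.088. The cause of these changes was not tested.

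No paired analysis was made. The library numbers run on through the series and link no libraries between groups, and the labels used here give no litter.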

Other observations

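Akr1b3, the aldose reductase that opens the polyol route to fructose, had a wide spread in cystic and in noncystic kidneys. Its level was 260.1 to 801 CPM in RC/+ and 92.5 to 1108 CPM in RC/-, and the difference did not pass (log2 -0.67, limma adjusted p = 0.517). It was 97.4 to 988 CPM in RC/- D18 and 178 to 834 CPM in RC/- D53. In RC/+ D18 it was 109 to 572 CPM, and in RC/+ D53 171 to 276 CPM. Sord, which follows it on that route, was 570.5 to 721 CPM in RC/+ and 175 to 315 CPM in RC/-, without overlap. Within the D53 line, 1 of the 17 further sugar transporters passed between cystic and noncystic kidneys, Slc2a6, which was higher in RC/- D53 (log2 2.41, adjusted p = 5.98e-06), and with TMM factors Slc2a9 passed too, as lower. Akr1b3, and Slc2a6 and Slc2a9 in this line, were singled out after their values were seen.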
